A study of Mus musculus with 20 samples.

Results

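Ppp1r10, Nabp1, Tbcc, Runx1, Bcl6, Hbegf and Fam43a are 7 of the 17097 genes that carried a single-symbol probe set on the mouse MG-430 PM array, and they were chosen because their signal was sharply lower within the first 4 h of AICAR. They were followed through 18 probe sets, all of them past the filter on dim signal, in SV40-immortalized embryonic fibroblasts that lacked both AMPK catalytic subunits, Ampkα1 and Ampkα2, on every array. The labels give 3 untreated control arrays at 0 h, 3 arrays each at 1, 2, 4, 12 and 24 h in 1 mM AICAR, and 2 arrays at 8 h in the same dose. AICAR is a nucleoside that cells phosphorylate to an AMP mimic, and it is widely used to switch on AMPK, so in these cells the comparison asks what the compound does without that kinase. No array held cells with AMPK, longer AICAR treatment also meant longer culture, and the labels name no separate cultures, so p-values here measure the spread between arrays, which may be technical.

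The genes belong to different pathways. Ppp1r10 encodes PNUTS, a nuclear scaffold that holds protein phosphatase 1 in the complex with Tox4 and Wdr82 and acts on RNA polymerase II at the end of transcription. Nabp1 encodes a single-stranded DNA-binding subunit of the SOSS complex, which takes part in DNA repair, and Tbcc encodes the cofactor that completes the folding of the tubulin dimer. Runx1 and Bcl6 encode transcription factors best known from blood cells, the one binding DNA with Cbfb and the other repressing its targets with Bcor and other corepressors. Hbegf encodes a membrane-anchored ligand of the EGF receptor that is released by metalloproteases, and the role of Fam43a is little described. Messages of transcription factors and growth factors are often short-lived.

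The stretches just upstream of the annotated starts of 6 of the genes were searched on both strands for short promoter motifs. Those of Ppp1r10, Runx1 and Fam43a, low early as well, did not hold the cyclic AMP response element core TGACG. The 3 stretches that held it are shown. They are the 150 bases before the RefSeq start on build GRCm38.p6, written 5′ to 3′ on the gene's strand, with each TGACG or its reverse complement CGTCA in capitals. Tbcc is at chr17:46890471-46890620 on the plus strand, Nabp1 at chr1:51478400-51478549 on the minus strand and the more upstream start of Bcl6 at chr16:23988853-23989002 on the minus strand.
Tbcc: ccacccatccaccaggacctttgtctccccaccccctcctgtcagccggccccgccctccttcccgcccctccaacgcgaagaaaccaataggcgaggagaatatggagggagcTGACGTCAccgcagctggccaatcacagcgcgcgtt
Nabp1: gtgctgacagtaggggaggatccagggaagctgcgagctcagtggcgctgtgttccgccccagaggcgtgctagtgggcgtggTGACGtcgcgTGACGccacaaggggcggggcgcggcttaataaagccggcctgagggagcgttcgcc
Bcl6: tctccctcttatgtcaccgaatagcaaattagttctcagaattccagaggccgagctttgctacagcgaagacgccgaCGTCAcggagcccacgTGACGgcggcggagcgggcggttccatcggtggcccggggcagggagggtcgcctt
In Tbcc the core on either strand overlaps to give the full element TGACGTCA, and in Bcl6 the second core overlaps an E-box, CACGTG. The core was present in 3 of 9 stretches of these genes, against 13.3% of the 32851 stretches in the table, and the full element in 1 of 9 against 1.36%. The GC box GGGCGG was found for Ppp1r10, Nabp1, Tbcc and Bcl6 (28.6% of all stretches), the CCAAT box for Tbcc and Runx1 (24.5%) and the E-box CACGTG for Runx1 and Bcl6 (4.3%). TATAAA, which 7.57% of stretches held, was in none of the 9. These matches describe the letters of short windows and were not tested against the expression values.

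Values are log2 signals as deposited. Array medians lay between 5.16 and 5.32, and 23 nonspecific control probe sets had a median of 3.71 and a 95th percentile of 5.08, which is used below as the level of background. Of the 9 fibroblast markers, 7 were above that level on every array, with Vim at 13.2, Fn1 at 11.8 and S100a4 at 12.5 in the controls, while Col1a2 and Thy1 were not. Above it on every array were also 1 of 5 macrophage markers, 1 of 4 endothelial and 2 of 4 epithelial markers, among them Epcam at 6.37. In a bulk extract, fewer cells with a message and less message per cell cannot be told apart. AICAR 4h replicate 1 gave the lowest signal of all 20 arrays for Ppp1r10, Nabp1, Tbcc and Fam43a. Over all 28703 probe sets tested it was the lowest array for 5.99%. The genes were chosen for low signal within 4 h, which favours a 4 h array as their lowest, so that share is not a like comparison. The distance of AICAR 4h replicate 1 from the other 4 h arrays had a median of -0.04 over all probe sets, and 3.03% of them lay at least 0.4 below. Lead probe set values at 4 h are therefore given with and without it.

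Each gene is described first by its lead probe set, the one with the highest mean over the 20 arrays. Ppp1r10, the PNUTS gene, had the deepest early low. It read 8.81, 8.71 and 8.58 in the controls, 8.26, 8.35 and 8.28 at 1 h, 7.38, 7.47 and 6.94 at 2 h, and 6.05, 6.75 and 6.22 at 4 h. Later it read 7.63 and 7.79 at 8 h, 7.57, 7.78 and 7.27 at 12 h, and 7.68, 7.90 and 7.58 at 24 h. Every AICAR array was below every control, the 4 h arrays were the lowest, and the 8, 12 and 24 h arrays overlapped. The difference with 0 h was -0.40 ± 0.17 at 1 h, -1.43 ± 0.17 at 2 h and -2.36 ± 0.17 at 4 h (log2, SE of the fit), the last being 5.13-fold lower and -2.21 without AICAR 4h replicate 1. Since the genes were selected on these early differences, they are a description and carry no test. At 8 h, 58.1% of the early difference had been regained, and at 24 h 58.4%, so the signal levelled off well under the controls. The other Ppp1r10 probe set, 1426727_PM_s_at, went lower still, to 5.13, 6.42 and 6.0 at 4 h against 8.93, 8.95 and 8.66 in the controls.

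Nabp1, of the SOSS complex, was low early and back at the control level by 8 h. Its lead probe set read 8.62, 8.51 and 8.35 in the controls, 7.50, 7.68 and 7.66 at 1 h, 6.64, 6.76 and 6.80 at 2 h, and 5.67, 7.22 and 6.79 at 4 h. It then read 8.66 and 8.65 at 8 h, 8.58, 8.60 and 8.60 at 12 h, and 8.21, 8.11 and 7.92 at 24 h. The arrays of 1, 2 and 4 h lay below the controls, those of 8 h above them, those of 12 h within their range and those of 24 h below it again. The 2 h difference with 0 h was -1.76 ± 0.24, 3.38-fold lower, and the 4 h difference was -1.93 ± 0.24. Without AICAR 4h replicate 1 the 4 h difference was -1.49 and the 4 h mean 7.01, above the 2 h mean of 6.73, so which of these times was lowest rests on that array. Both other probe sets were also low early and above the controls at 8 h. 1426806_PM_at was -1.44 from the controls at 2 h, -1.69 at 4 h and 0.40 at 8 h, and 1430623_PM_s_at was -0.84, -0.74 and 0.35 at those times. Their 4 h arrays read 4.78, 6.44 and 6.04 for 1426806_PM_at and 5.58, 6.39 and 6.30 for 1430623_PM_s_at. AICAR 4h replicate 1 was again the lowest of the group in both. At 24 h both overlapped the controls, at -0.17 and -0.04, unlike the lead.

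Tbcc, the tubulin cofactor gene, started later and went down again at the end. The lead probe set read 8.10, 8.05 and 7.94 in the controls, 7.80, 7.98 and 7.75 at 1 h, 7.21, 7.26 and 7.11 at 2 h, and 6.25, 6.83 and 6.60 at 4 h. It read 7.74 and 7.64 at 8 h, 7.34, 7.52 and 7.36 at 12 h, and 6.85, 6.84 and 6.57 at 24 h. The 1 h arrays overlapped the controls and all later ones were below them, with the 24 h arrays reaching into the range of 4 h. The difference with 0 h was -0.19 ± 0.12 at 1 h, 12.7% of the early low, and -1.47 ± 0.12 at 4 h, 2.78-fold lower, or -1.32 without AICAR 4h replicate 1. By 8 h 76.7% had been regained, by 24 h 13.4%. The dim second probe set, 1451423_PM_at, had means of 5.04 at 4 h and 4.96 at 24 h, both under the background level, against 5.46 in the controls.

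Runx1 was measured by 6 probe sets that did not give the same picture. Its lead probe set read 7.0, 7.32 and 7.55 in the controls, 6.66, 6.56 and 6.82 at 1 h, 6.69, 6.28 and 6.01 at 2 h, and 5.77, 5.24 and 5.90 at 4 h. Later values were 6.85 and 6.47 at 8 h, 7.24, 6.81 and 6.30 at 12 h, and 6.52, 6.07 and 5.65 at 24 h. All arrays of 1, 2, 4, 8 and 24 h lay below the controls, and those of 12 h overlapped them. The 4 h difference was -1.66 ± 0.25, 3.15-fold lower, and here AICAR 4h replicate 1 was not the low array (-1.72 without it). At 4 h 1422865_PM_at was -0.79 and 1440878_PM_at -0.53 from the controls, 1452531_PM_at was -0.28, and 1427650_PM_a_at and 1452530_PM_a_at were -0.01 and -0.04. The group means of 1452530_PM_a_at, 4.72 to 4.855, were all under the background level. Those of 1440878_PM_at were under it at 1, 2 and 4 h, with 4.79 at 4 h. The mean over the 6, these included, was -0.55, so the size of the measured Runx1 low depends on the probe set. At 24 h 1422865_PM_at and 1440878_PM_at overlapped the controls, at -0.15 and -0.05. 1427650_PM_a_at, 1452530_PM_a_at and 1452531_PM_at lay below them, at -0.34, -0.13 and -0.40. At 2, 4, 8, 12 and 24 h the lowest array of the lead probe set was also the one with the narrowest interquartile range of all signals, and with that range as a covariate the 4 h difference was -1.46. Which transcripts each probe set reads was not looked up here.

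Bcl6, the repressor gene, reached its low at 2 h and then rebounded above the controls. The lead probe set read 6.48, 6.53 and 6.29 in the controls, 5.82, 5.91 and 5.78 at 1 h, 5.04, 5.27 and 5.44 at 2 h, and 5.24, 6.29 and 6.11 at 4 h. It read 7.29 and 7.0 at 8 h, 6.94, 6.91 and 6.30 at 12 h, and 6.75, 6.92 and 6.20 at 24 h. The 1, 2 and 4 h arrays were below the controls, the 8 h arrays above them. At 4 h the margin was slight, with a highest array of 6.288 against a lowest control of 6.291. At 2 h replicate 1 was under the background level and the mean, 5.25, was close to it, so the depth of the low is uncertain. At 12 h the arrays lay above or within the control range, and at 24 h replicates 1 and 2 lay above it and replicate 3 below. The difference with 0 h was -1.18 ± 0.24 at 2 h, 2.27-fold lower, and 0.71 ± 0.27 at 8 h. At 4 h it was -0.56 with all 3 arrays and -0.23 without AICAR 4h replicate 1, which lay 0.96 below the mean of the other 4 h arrays. The second probe set, 1450381_PM_a_at, stayed near background, with group means between 5.15 and 5.28, and showed no such course.

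Hbegf, the EGF receptor ligand, did not return to the control level at any later time. Its lead probe set read 9.62, 9.80 and 9.93 in the controls, 9.15, 8.76 and 9.35 at 1 h, 9.57, 9.09 and 8.27 at 2 h, and 9.20, 7.98 and 8.27 at 4 h. It read 9.34 and 8.31 at 8 h, 8.89, 8.84 and 7.93 at 12 h, and 8.70, 8.09 and 7.86 at 24 h. Every AICAR array lay below every control, but arrays of 1 time spread by as much as the times differed, with SDs of 0.64 at 4 h and 0.73 at 8 h. The difference with 0 h was -0.70 ± 0.37 at 1 h, -1.30 ± 0.37 at 4 h and -1.56 ± 0.37 at 24 h. As for Runx1, the lowest Hbegf array at 2, 4, 8, 12 and 24 h was the one with the narrowest interquartile range, and with that range as a covariate the 4 h difference was -0.96. Here AICAR 4h replicate 1 was the high array, and without it the 4 h difference was -1.66. The actin 3′ minus 5′ difference, a measure of RNA integrity, was 0.69 in AICAR 4h replicate 2 and 0.65 in AICAR 8h replicate 2. It was 0.38 to 0.46 in the controls. The Gapdh 3′ minus 5′ difference of these arrays, 0.193 and 0.18, was within the control range of 0.0766 to 0.228. Both arrays were the lowest of their groups for Hbegf and Runx1, and the part of RNA integrity in either result was not tested.

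The second Hbegf probe set, 1418349_PM_at, gave a tighter series. It read 9.17, 9.30 and 9.19 in the controls, 9.04, 9.02 and 8.92 at 1 h, 8.73, 8.69 and 8.99 at 2 h, and 8.53, 8.70 and 8.48 at 4 h. It read 8.49 and 8.66 at 8 h, 8.26, 8.11 and 8.19 at 12 h, and 8.45, 8.49 and 8.44 at 24 h. Again every AICAR array was below every control, and the lowest time was 12 h, at -1.03 ± 0.08 from 0 h.

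Fam43a, at 1 h, was farther below the controls than any other lead probe set here, by 1.01 on the log2 scale. It read 6.79, 6.71 and 6.63 in the controls, 5.77, 5.59 and 5.73 at 1 h, 4.81, 4.90 and 4.93 at 2 h, and 4.78, 5.76 and 5.55 at 4 h. It read 6.56 and 6.65 at 8 h, 5.89, 6.08 and 5.81 at 12 h, and 5.42, 5.50 and 5.09 at 24 h. The arrays of 1, 2 and 4 h lay below the controls, those of 8 h overlapped them, and those of 12 and 24 h were below them again. All 3 arrays at 2 h were under the background level, so the signal there was at least 3.09-fold lower than the control mean, and the measured difference was -1.83 ± 0.18. The 4 h difference was -1.35 with all arrays and -1.06 without AICAR 4h replicate 1. It has a single probe set.

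**Figure D1:**
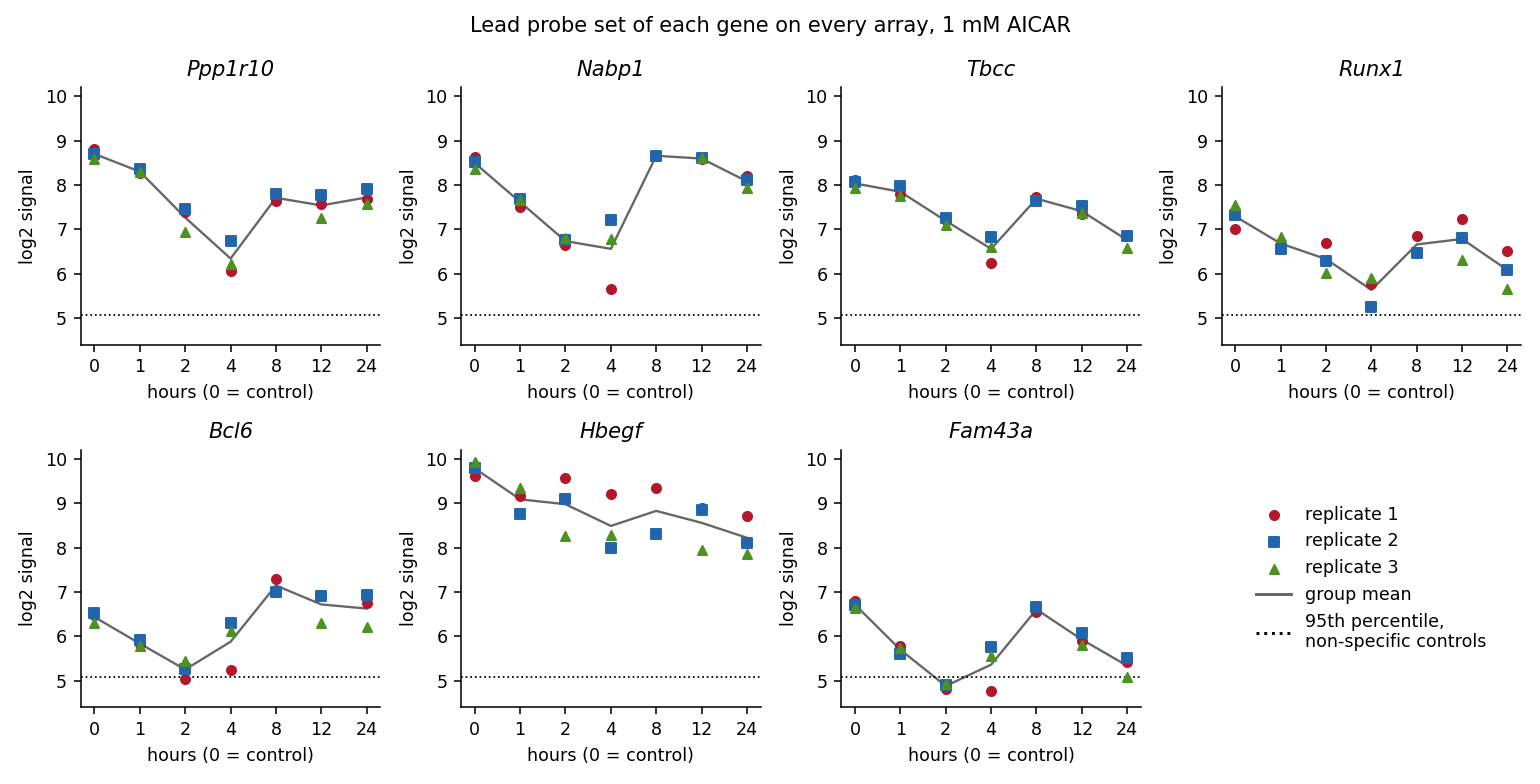
Log2 signal of the lead probe set of each gene (vertical axis) against hours in 1 mM AICAR, with the control at 0 h (horizontal axis, times evenly spaced). Symbols are single arrays by replicate number, the line joins group means and the dotted line is the 95th percentile of nonspecific controls (5.08). Ppp1r10 reached 6.05 to 6.75 at 4 h and stayed below the controls, Nabp1 was back at 8.65 and 8.66 by 8 h, and Hbegf did not return.

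The genes differed in when they were lowest and in how far they came back. Bcl6 and Fam43a had their early low at 2 h and the other 5 at 4 h, Nabp1 with the proviso above. By lead probe set, at 1 h Hbegf had covered 53.8% of its early difference, Bcl6 50.5%, Nabp1 45.5%, Runx1 36.9%, Ppp1r10 16.9% and Tbcc 12.7%. The tighter Hbegf probe set, 1418349_PM_at, had covered 34.9% at 1 h and regained 0.86% at 8 h. For the lead probe sets the share regained at 8 h was 160% for Bcl6, 108% for Nabp1, 76.7% for Tbcc, 61.9% for Runx1, 58.1% for Ppp1r10 and 26.1% for Hbegf. At 24 h it was 116% for Bcl6, 78.7% for Nabp1, 58.4% for Ppp1r10, 26.9% for Runx1, 13.4% for Tbcc and -20.6% for Hbegf, whose 24 h mean was below its early low. The other Runx1 probe sets differed: at 24 h the share was 81.5% for 1422865_PM_at and -44.3% for 1452531_PM_at. No such share is given for Fam43a, whose 2 h signal was under the background level. The Bcl6 shares rest on a 2 h mean close to that level and are uncertain for that reason.

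**Figure D2:**
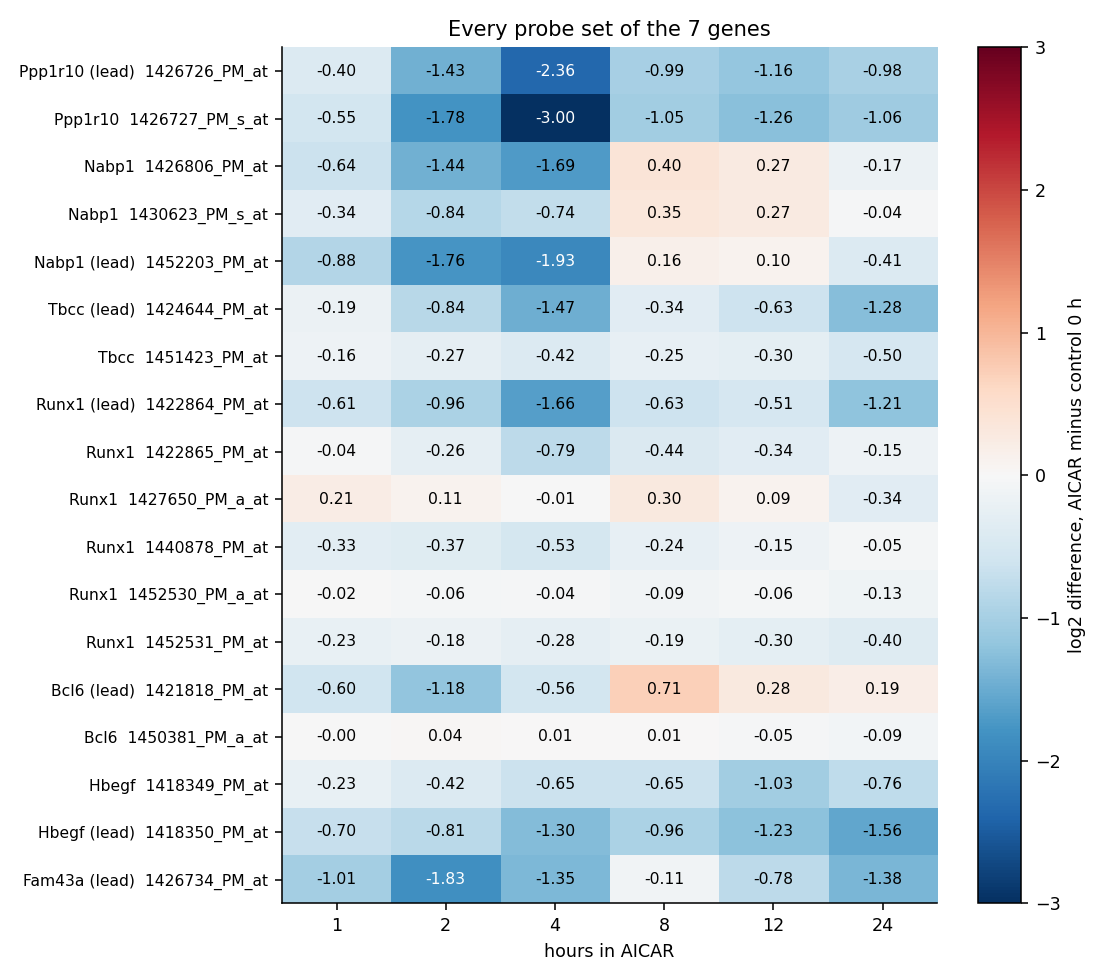
Difference in mean log2 signal with the 0 h controls (colour and printed value, blue lower and red higher) for all 18 probe sets of the 7 genes (rows) at each time in AICAR (columns, hours). The 2 Ppp1r10 and 3 Nabp1 probe sets are all low at 2 and 4 h, while the Runx1 probe sets range from -1.66 to -0.01 at 4 h and the second Bcl6 probe set stays near 0.

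**Figure D3:**
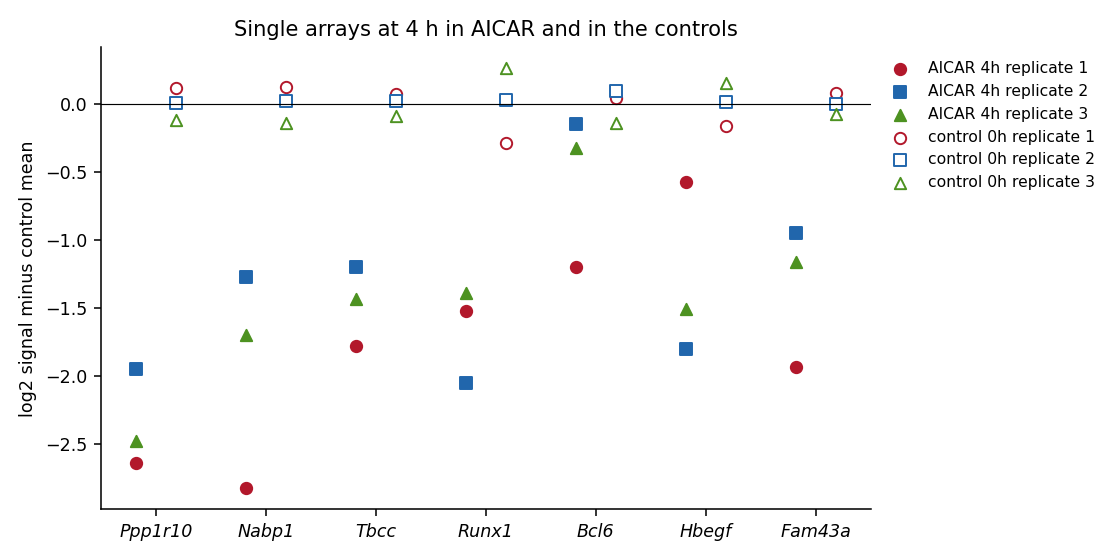
Log2 signal minus the control mean (vertical axis) of the lead probe set of each gene (horizontal axis) on the 3 arrays at 4 h in AICAR (filled) and the 3 controls (open). AICAR 4h replicate 1 was the lowest 4 h array for Ppp1r10, Nabp1, Tbcc, Bcl6 and Fam43a and the highest for Hbegf.

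Differences among 8, 12 and 24 h were tested with limma over all 28703 probe sets, with Benjamini-Hochberg adjusted p-values. The differences themselves involve neither the controls nor the early arrays. Their SEs and p-values do draw on the spread of those arrays, because all 20 arrays were fitted together. The genes were taken up with their late course known, so these tests are not independent of the choice. A second decline was found for Tbcc and Fam43a. Tbcc was 6.76 ± 0.16 at 24 h and 7.41 ± 0.10 at 12 h (SD, n = 3 arrays each), a difference of -0.65 ± 0.12 (SE) with a limma adjusted p of 0.00139. Against 8 h, at 7.69 ± 0.06 (SD, n = 2), the 24 h difference of Tbcc was -0.93 ± 0.13, 1.91-fold lower, with a limma adjusted p of 0.000109. Fam43a was 5.34 ± 0.22 at 24 h and 6.61 ± 0.07 at 8 h, a difference of -1.27 ± 0.20, 2.41-fold lower, with a limma adjusted p of 0.000228. The arrays of these groups did not overlap for either gene. The 24 minus 12 h difference of Fam43a was -0.59 ± 0.18, with a limma adjusted p of 0.0326 that was lost without AICAR 12h replicate 1 (0.0625) or 2 (0.121) or AICAR 24h replicate 1 (0.057) or 3 (0.128), within a range of 0.0122 to 0.128 over the alternatives.

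The other genes gave fewer or less stable late differences. Runx1's lead probe set was 0.70 ± 0.25 lower at 24 h than at 12 h, which did not pass (limma adjusted p = 0.0795) and passed without AICAR 12h replicate 3 or AICAR 24h replicate 1. Its probe set 1427650_PM_a_at was lower by 0.64 ± 0.16 at 24 h than at 8 h (limma adjusted p = 0.00858, and 0.0804 without AICAR 8h replicate 1), in a course that had no early low. Nabp1 was -0.58 ± 0.27 at 24 h against 8 h and -0.51 ± 0.24 against 12 h (limma adjusted p = 0.178 and 0.2), although its 24 h arrays lay below all of both groups. Its SDs were 0.009 at 8 h, 0.014 at 12 h and 0.145 at 24 h, against 0.804 at 4 h, which also enters these SEs. With only the groups compared, the limma adjusted p was 0.031 against 8 h and 0.0323 against 12 h. The second Hbegf probe set, 1418349_PM_at, was 0.27 ± 0.08 higher at 24 h than at 12 h (limma adjusted p = 0.0397), a call that held without AICAR 12h replicate 1 and was lost without any other single array of these groups. The 24 minus 8 h difference was 0.01 ± 0.19 for Ppp1r10 and -0.52 ± 0.27 for Bcl6, neither past the test.

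In counts, 2 of the 7 lead probe sets were lower at 24 h than at 12 h and none was higher (0 at an unadjusted p under 0.05 as well), against 5.44% of all probe sets lower and 8.56% higher. At 24 h against 8 h the counts were again 2 lower and none higher, with the same 0 before adjustment, against 7.87% and 9.56%. These shares are not over lead probe sets alone, so they are not a like comparison for the leads. Over all 18 probe sets, 2 were lower and 1 higher at 24 h than at 12 h, and 3 were lower and none higher at 24 h than at 8 h, with 0 higher before adjustment. Between 8 and 12 h no member passed limma in either direction, where 0.369% of all probe sets were lower and 0.171% higher, and 2 lead probe sets were lower at an unadjusted p under 0.05. The median difference of the 7 leads was -0.51 for 24 minus 12 h, against -0.002 over all probe sets. Because the genes were taken up with their late course known, neither the counts nor this median is independent of the choice. On AICAR 24h replicate 3 the lead probe sets of all 7 genes had their lowest 24 h signal, and without that array Tbcc and Fam43a still passed at 24 h against 8 h and Tbcc against 12 h.

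**Figure D4:**
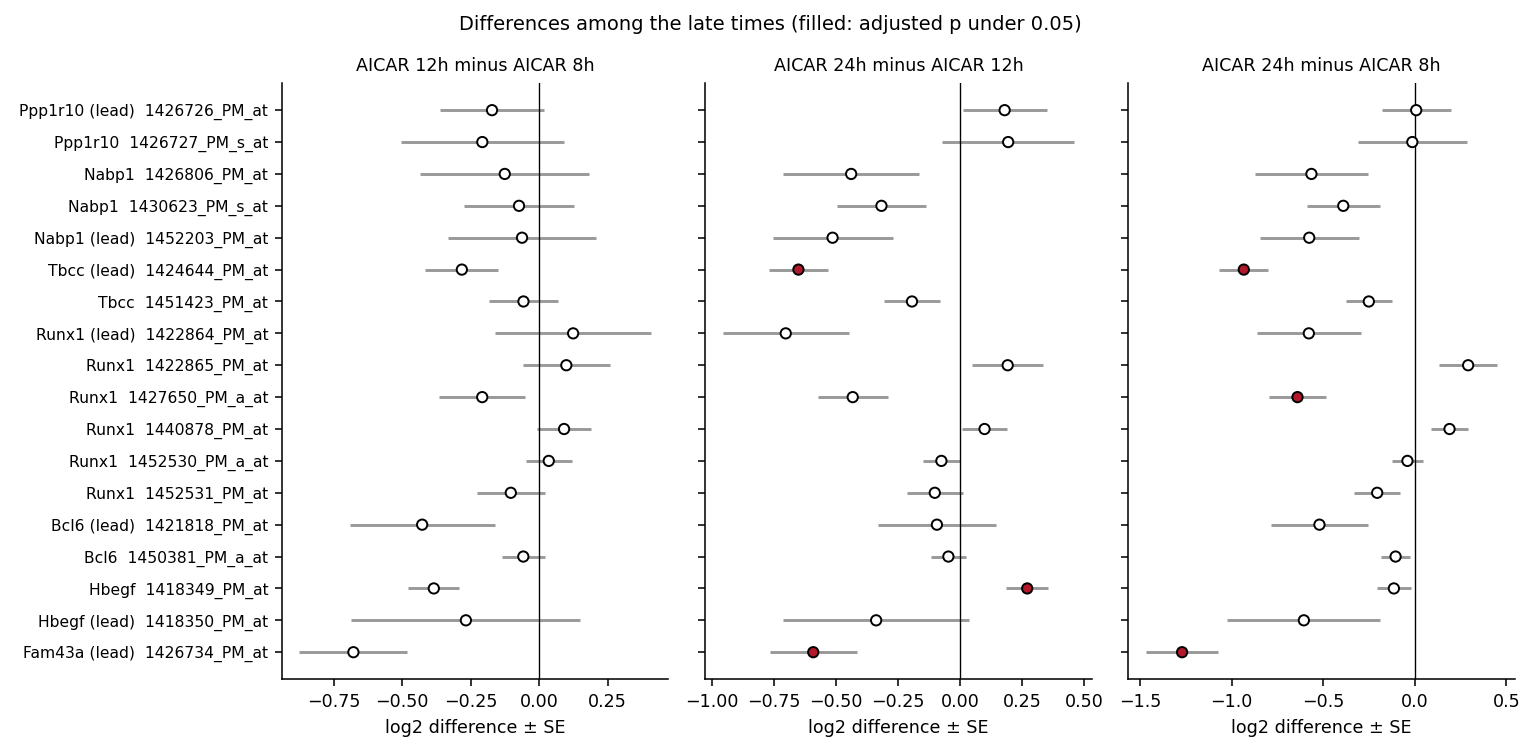
Difference in log2 signal between late times (horizontal axis, bars are the SE of the limma fit) for the 18 probe sets (rows), at 12 h minus 8 h, 24 h minus 12 h and 24 h minus 8 h. Filled points had a limma adjusted p under 0.05. Tbcc and Fam43a lead probe sets were lower at 24 h in both comparisons, the call of Fam43a against 12 h being lost without some single arrays. Also filled are Hbegf 1418349_PM_at, higher at 24 h than at 12 h (0.27), and Runx1 1427650_PM_a_at, lower at 24 h than at 8 h (-0.64).

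The proteins that these genes' products work with were looked up from lists set by function, 62 genes of which 54 could be tested. The lists were drawn up with earlier results of these data known, and all their comparisons with 0 h share the same controls. Each partner stands by its lead probe set, while the shares given beside the counts are over all probe sets, dimmer ones of the same gene included. Those shares are therefore not a like comparison. None of the 54 passed limma at 1 h, with 0 higher and 1 lower at an unadjusted p under 0.05, where 0.0523% of all probe sets were higher and 0.275% lower. None passed at 2 h either, with 4 higher and 2 lower before adjustment, where 0.46% were higher and 0.53% lower. At 4 h 3 were higher and 6 lower, 5.56% and 11.1% of the lists against 4.06% and 4.53% of all probe sets. That count of 9 was 5 without control 0h replicate 2 or AICAR 4h replicate 2 or 3, and 7 without AICAR 4h replicate 1.

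At 8 h 4 partners were higher and none lower, with 8 lower before adjustment, against 4.5% and 2.5% of all probe sets. The 4 were 3 or fewer without any single array of the comparison and 0 without AICAR 8h replicate 1. At 12 h 7 were higher and 10 lower, against 9.89% and 7.84%, and at 24 h 15 were higher and 10 lower, 27.8% and 18.5% of the lists against 19.3% and 13.8% of all probe sets. The median difference of the partners was -0.003 at 4 h and 0.08 at 24 h, against 0.02 and -0.02 over all probe sets.

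Among BCL6 partners, of which 5 could be tested, Bcor, a corepressor that binds Bcl6, was lowest at 4 h. It read 5.38, 5.45 and 5.76 at 4 h in AICAR, against 6.50, 6.58 and 6.40 in the controls. The groups did not overlap, and the difference was -0.96 ± 0.15 with a limma adjusted p of 0.000705. Bcorl1, the relative of Bcor, was 0.33 ± 0.09 higher at 8 h (limma adjusted p = 0.0376) and lost its call without any single array of that comparison. Mta3, a corepressor that works with Bcl6 in B cells, was 0.30 ± 0.09 higher at 24 h (limma adjusted p = 0.0123), and was lost without control 0h replicate 3 (0.0708) or AICAR 24h replicate 1 (0.0571).

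In the EGF family, of which 14 could be tested, the ligands Ereg and Nrg1 were low as well from 4 h on. At 1 and 2 h the arrays of both overlapped the controls, while the Hbegf lead probe set was already -0.70 and -0.81 from them. Nrg1, the neuregulin gene, read 6.0, 5.87 and 5.99 at 24 h in AICAR, against 7.12, 7.07 and 6.95 in the controls, with no overlap. The difference was -1.10 ± 0.11 (limma adjusted p = 1.16e-06), and it was -0.73 ± 0.11 at 4 h (limma adjusted p = 0.000598). Ereg, the epiregulin gene, was -0.65 ± 0.14 at 4 h and -1.14 ± 0.14 at 12 h (limma adjusted p = 0.0074 and 4.04e-05). The receptor gene Erbb3 went the other way and read 7.98, 7.69 and 7.43 at 24 h against 6.07, 6.25 and 6.03 in the controls, a difference of 1.59 ± 0.14 (limma adjusted p = 1.7e-07). Of the family, 7 were higher and 4 lower at 24 h, 50% and 28.6% of those tested, against 19.3% and 13.8% of all probe sets. As above, the latter shares are not over lead probe sets alone. The other 6 higher genes were the ligands Btc and Tgfa, the proteases Adam10, Adam17 and Nrdc, and Cd9, which binds the Hbegf precursor, while Egfr and Adam12 were among those lower.

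Partners of the other genes were tested in the same way. Of the 12 PNUTS and phosphatase genes tested, Ppp1r11, a phosphatase inhibitor gene, was -0.78 ± 0.20 at 4 h and -0.99 ± 0.20 at 24 h (limma adjusted p = 0.0235 and 0.000973). Ppp1r15a, whose product directs the phosphatase to eIF2α, was -0.64 ± 0.12 at 12 h (limma adjusted p = 0.00122), and its relative Ppp1r15b was 0.36 ± 0.09 higher at 4 h (limma adjusted p = 0.0223). That last call was lost without any single array of the comparison other than AICAR 4h replicate 1. Among the direct PNUTS partners, Tox4 was 0.36 ± 0.08 higher at 24 h and Wdr82 0.25 ± 0.06 lower (limma adjusted p = 0.00132 and 0.00266).

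Of the 7 SOSS and single-stranded DNA-binding genes, the SOSS subunit genes Ints3 and Inip were lower and the mitochondrial Ssbp1 was higher. Ints3 was -0.45 ± 0.10 at 4 h, Inip -0.67 ± 0.09 at 12 h and Ssbp1 0.41 ± 0.07 at 12 h (limma adjusted p = 0.00865, 9.44e-05 and 0.000533). Of 8 tubulin-folding genes, Arl2, a small GTPase that works with the cofactors, was -0.34 ± 0.07 at 4 h (limma adjusted p = 0.00587). Rp2 and Tbccd1, relatives of Tbcc, and Tbcel were higher late, Rp2 by 0.82 ± 0.11 and Tbcel by 0.67 ± 0.09 at 24 h, and Tbccd1 by 0.63 ± 0.12 at 12 h (limma adjusted p = 2.43e-05, 2.53e-05 and 0.00156). Of 8 RUNX genes, the corepressor genes Tle1 and Tle3 were -0.91 ± 0.25 and -0.57 ± 0.14 at 24 h (limma adjusted p = 0.00958 and 0.00409). Runx3 was 0.50 ± 0.16 higher at 24 h (limma adjusted p = 0.0234), and its call was lost without control 0h replicate 3 or AICAR 24h replicate 1 or 2.

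**Figure D5:**
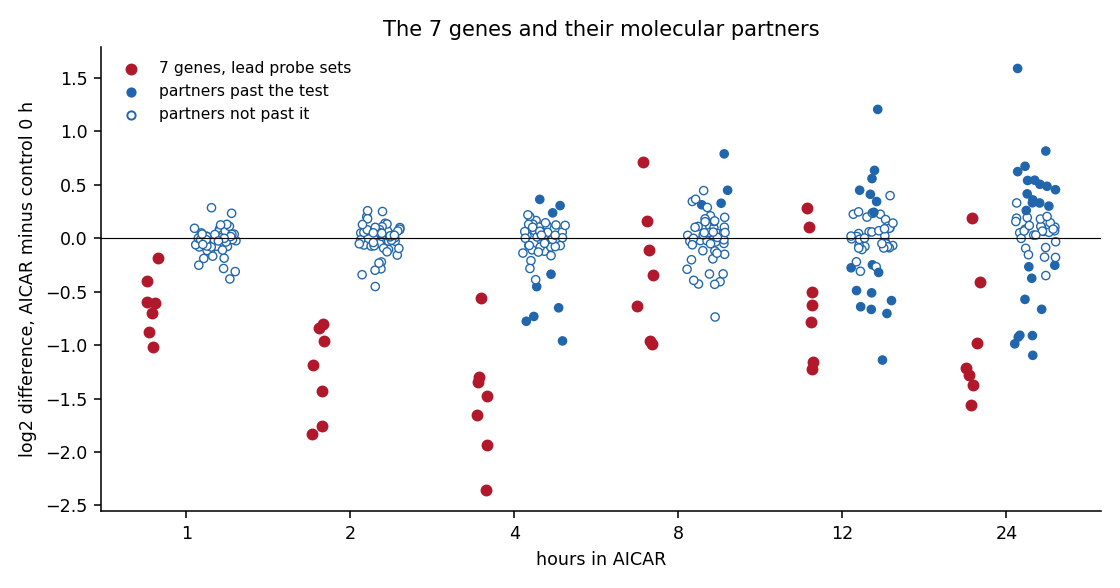
Difference in mean log2 signal with the 0 h controls (vertical axis) at each time in AICAR (horizontal axis, hours) for the lead probe sets of the 7 genes (red) and the 54 tested partners (blue, filled where the limma adjusted p was under 0.05). No partner passed at 1 or 2 h, and Erbb3 at 24 h is the highest point, at 1.59.

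The genes were also set beside 12222 other named genes by the shape of the 7 group means, each profile centred on its own mean, with the root mean square difference in log2 units as the measure. This describes group means over 20 shared arrays and has no test. For Ppp1r10 the nearest was Hexim1 (0.336), whose product inhibits the elongation kinase P-TEFb, followed by Rsbn1l (0.388) and Jmjd4 (0.392). Hexim1 was -1.23 from the controls at 4 h. For Nabp1 the nearest were Chst1 (0.385), Lcmt2 (0.407) and Tcim (0.418), no closer than that, and none of them was as low at 4 h as Nabp1, the lowest being Chst1 at -1.13.

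Tbcc and Runx1 shared Prmt6, an arginine methyltransferase gene, as their nearest (0.12 for Tbcc and 0.187 for Runx1), with differences of -1.19 at 4 h and -1.11 at 24 h. They were also the closest pair among the 7 genes (0.181), and Nabp1 and Hbegf the farthest (0.863). Bcl6 was nearest to 3 zinc finger genes, Zbtb9 (0.196), Zfp775 (0.214) and Zfp54 (0.218). Hbegf was nearest to Adamts5, a matrix protease gene (0.12), then Dbt (0.144) and the long noncoding Pvt1 (0.155). Fam43a was nearest to Chac1, a glutathione-degrading enzyme gene (0.27), Neat1, a nuclear long noncoding RNA (0.289), and Cebpd, a transcription factor gene (0.29), and Chac1 was -1.86 from the controls at 2 h.

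The protein-coding genes that lie next to the 7 in the GRCm38.p6 annotation did not share the low. Of these 14 neighbours, 10 were past the filter, and at 4 h they lay between -0.27 (Setd4, beside Runx1) and 0.24 (Clic6, on its other side). Mrps18b and Abcf1, on the sides of Ppp1r10, were -0.14 and -0.02, and Cavin2, beside Nabp1, was -0.25 at 4 h and -2.15 at 24 h.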

How the data were processed

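Total RNA of AMPKα1/α2 double-knockout, SV40-immortalized fibroblasts was labelled with biotin and hybridised to Affymetrix MG-430 PM strips, per the labels. The deposited values of 45141 probe sets on 20 arrays were taken as log2 signal: their highest, 13.5, is too high for natural logs of scanner intensities and too low for linear ones. Which background correction, summary and normalization lie behind the authors' log2 values was not given in the sources used here. The medians of the arrays spanned 0.159, so the values were used as deposited. Precision is limited by the number of arrays.

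The platform annotation gave 28898 probe sets a single symbol, 551 several and 15692, controls included, none. For 28689 probe sets the current symbol was looked up through the gene identifier, whether or not it differed from the listed one. After 104 array controls were left out, 28703 probe sets whose highest group mean exceeded the 40th percentile of all values (4.81) were fitted together with limma 3.58.1 in R 4.3.3 (lmFit, eBayes, 13 residual degrees of freedom), two-sided, with Benjamini-Hochberg adjustment within each comparison and a threshold of 0.05. The fit was tested on simulated data. The figures use matplotlib 3.10.9 under Python 3.11.15.

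The 7 genes and the partner and marker lists were chosen with earlier results of these data known. All 7 genes were named with every probe set, up to 3 partners per list with the largest change past the threshold, and the 3 genes nearest in profile to each member. Partners named beyond that rule, among them Arl2, Tox4 and Wdr82 and the further EGF family genes, were chosen after their values were seen. Some listed partners, among them Areg, Fam43b and Runx2, were not analysed here, and Bcl6b, Egf and Erbb4 did not pass the filter. Promoter stretches came from RefSeq (GRCm38.p6), and Hbegf's was not used here. Replicate numbers were not taken to pair the arrays. Alternatives covered normalization, the filter, probe sets, the variance model, array weights, a replicate block, the interquartile range as covariate, the samples fitted and leaving out each array. The mean over a gene's probe sets was added after seeing the data.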

Additional observations from a re-analysis of the deposited data

How the results depend on the processing

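Over the alternatives run, no result reversed its call. Called probe sets numbered 155 between 8 and 12 h, and 697 with quantile normalization, 48 with median centring, 248 with the filter at the 60th percentile, 360 with array weights, 622 with the replicate block, 1003 with the interquartile range as covariate, 0 with only the groups compared, and 6 to 135 with single arrays left out. For 24 minus 12 h they numbered 4019, and 2571 with a single probe set per gene, 6269 with the covariate, 1327 with only the groups compared and 2582 to 3793 with arrays left out; for 24 minus 8 h, 5001, and 3091, 2565 (groups compared) and 2915 to 4792 (arrays left out). Member genes called for 24 minus 12 h were 1 to 3 with arrays left out. Partners called at 2 h were 6 with array weights; at 4 h 36 with array weights, 5 with only the groups compared and 5 to 7 with arrays left out; at 8 h 13 with quantile normalization, 7 with a single probe set per gene, 11 with array weights, 12 with the replicate block, 13 with the covariate, 2 with only the groups compared and 0 to 3 with arrays left out; at 12 h 26 with array weights and 10 with only the groups compared. Array weights did not converge fully. The cause of these shifts was not tested, apart from the smaller numbers of arrays or probe sets fitted. Tbcc kept its calls for 24 h against 12 h and 8 h in all 17 and 16 alternatives, and Fam43a kept that against 8 h in all 16. Runx1 at 24 minus 12 h passed with array weights (0.0145), the replicate block (0.0484) and the covariate (0.00804), within adjusted p-values of 0.00804 to 0.309, and Nabp1 with only the groups compared (0.0323, and 0.031 against 8 h). With the mean over all probe sets, the 4 h difference was -2.68 for Ppp1r10, -1.46 for Nabp1 and -0.95 for Tbcc. Deviations of same-numbered arrays correlated at a median of 0.252 (57 pairs, -0.477 to 0.836), against -0.117 for other pairs, and 13 of 20 arrays correlated best with their own number, a hint of pairing from the data but not from the labels. Signals near 5.08, such as Fam43a at 2 h, are bounds.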
